A study of Mus musculus with 12 samples.

Results

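Notch effectors and target genes are described here in cardiomyocyte preparations, which also held other cells, from adult mice with and without desmin. Of 21493 genes in the count tables, 10 were chosen by their symbols: the nuclear partners Rbpj and Maml1, the target genes Hey1, Hey2, Heyl, Hes1 and Nrarp, and the regulators of ligand and receptor Mib1, Numb and Adam10. All 10 were present in every library, and all 10 passed the filter on low counts, which kept 13158 genes. The choice did not use their measured values, but it was made with earlier results of these data known. The question was how the transcripts at the nuclear end of the Notch pathway, and those that set receptor and ligand activity, differ with desmin and with exercise.

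In the Notch pathway, a membrane receptor is bound by a ligand on a neighbouring cell and cut by an ADAM protease and by gamma-secretase. The freed intracellular domain enters the nucleus, binds the DNA-binding protein RBPJ and recruits Mastermind-like coactivators, which turns on target genes such as the Hes and Hey repressors and Nrarp. The pathway shapes the valves, trabeculae and vessels of the developing heart, and in the adult heart it is also used by endothelial and mural cells.

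RNA came from cells isolated enzymatically from the hearts of mice aged 3 months, which either carried desmin (Des+/+) or lacked it throughout the body (Des-/-), and which had been put through swimming as an exercise stress (swim) or had not (non-swim). There were 4 groups of 3 libraries, 12 in all: Des+/+ non-swim, Des+/+ swim, Des-/- non-swim and Des-/- swim. By the study's methods both genotypes shared an inbred background and an αMHC-GFP transgene, a green fluorescent reporter driven by a cardiomyocyte promoter, and mice were pooled within each library, so replicates are pools. The labels do not give the interval between exercise and isolation.

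Per library, 7425291 to 12072443 reads fell in genes in the Des+/+ groups and 4320819 to 11206142 in the Des-/- groups, and the Des-/- swim libraries, with at most 6521963, were the shallowest. Of uniquely aligned reads, 34.0 to 39.3% fell in no gene in Des+/+ non-swim, 45.9 to 50.4% in Des+/+ swim, 34.2 to 52.3% in Des-/- non-swim and 57.2 to 64.5% in Des-/- swim libraries, which do not overlap between genotypes after swimming or between swim and non-swim libraries of 1 genotype. Transcripts of Des itself were at 973 to 3647 CPM (counts over the total of the library, itself scaled by its TMM normalisation factor) in Des+/+ libraries and at 50.3 to 101 in Des-/- libraries. All 12 cardiomyocyte markers listed, among them Myh6 and Tnnt2, were detected in every library, but their summed level was 72935 to 110472 CPM in Des+/+ non-swim, 35822 to 58624 in Des+/+ swim, 7224 to 33913 in Des-/- non-swim and 17771 to 29717 in Des-/- swim libraries. Without swimming edgeR called all 12 cardiomyocyte markers lower in Des-/- libraries. Markers of other cells were detected too. In Des-/- non-swim replicate 3 the fibroblast markers summed to 40337 CPM, against 7224 for the cardiomyocyte markers. By edgeR, 10 of 10 fibroblast markers were called higher in Des-/- libraries without swimming. So were 8 of 10 macrophage markers and 10 of 12 genes that respond to cell isolation. DESeq2 called 6 of the fibroblast markers, 8 of the macrophage markers and 11 of the isolation genes. Of 12 endothelial markers, 0 were called by edgeR or DESeq2 in that comparison (0 at an unadjusted p under 0.05). After swimming the genes that respond to isolation were 8 of 12 called by edgeR and 12 of 12 higher in Des-/- libraries. The fibroblast markers were 1 of 10 called and 10 of 10 higher, and the macrophage markers 0 of 10 called and 10 of 10 higher. The cardiomyocyte markers were 1 of 12 called and 12 of 12 lower. On a first principal component with 48.9% of the variance, Des+/+ libraries lay at -54.2 to -30.0 and Des-/- libraries at 4.39 to 102. Replicate 3 lay farthest out in each Des-/- group, at 102 without and 59.0 after swimming. The part of these differences in the results for the Notch genes was not tested, and in such bulk RNA, fewer cells of a type and less RNA per cell cannot be told apart.

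Of the 10 genes, edgeR called only Nrarp, between genotypes after swimming, where 10.6% of all genes tested were called. That call is near its threshold. Nrarp encodes a small ankyrin-repeat protein that is induced by Notch and limits Notch signalling by binding the RBPJ complex. The window around its start and that of Hey2 are shown because these are the targets with a window in the RefSeq table used, GRCm38.p6. The search covered 9 windows of 6 of the 10 genes, and Mib1 was not among the genes searched. Each window runs from 250 bases before to 50 bases after the annotated start. Capitals mark TGGGAA or its reverse complement TTCCCA, the core of the sequence bound by RBPJ.
Nrarp, chr2:25180508-25180807, plus strand: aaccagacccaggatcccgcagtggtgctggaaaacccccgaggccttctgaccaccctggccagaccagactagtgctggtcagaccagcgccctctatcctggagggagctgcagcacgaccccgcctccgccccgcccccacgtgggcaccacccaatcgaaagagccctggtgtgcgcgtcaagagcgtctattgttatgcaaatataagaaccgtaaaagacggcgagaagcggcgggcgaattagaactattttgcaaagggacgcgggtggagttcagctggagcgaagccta
Hey2, chr10:30842734-30843033, minus strand: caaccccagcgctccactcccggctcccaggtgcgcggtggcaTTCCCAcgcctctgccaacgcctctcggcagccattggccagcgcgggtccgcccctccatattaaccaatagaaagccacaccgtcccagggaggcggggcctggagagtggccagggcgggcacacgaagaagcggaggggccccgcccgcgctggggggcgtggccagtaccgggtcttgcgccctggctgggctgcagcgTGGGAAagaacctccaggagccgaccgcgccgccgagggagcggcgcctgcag
The Hey2 window held 2 matches, 1 on each strand, starting 207 and 3 bases before the start, and each was part of the longer GTGGGAA. The Nrarp window held 0. Among 32851 windows of 300 bases, 25.6% held TGGGAA on either strand and 6.38% held GTGGGAA, so a match is common, and its absence says only that these letters are not in this window.

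Nrarp (ENSMUSG00000078202, GRCm38 chr2:25180758-25183339) stood at 91.2, 50.7 and 94.1 CPM in the Des+/+ non-swim libraries. In the Des+/+ swim libraries it stood at 142, 155 and 168 CPM. In the Des-/- groups it stood at 104, 90.9 and 65.3 CPM without and at 70.4, 95.1 and 84.7 CPM after swimming. Each Des+/+ swim library thus lay above each of the 9 other libraries, the highest of which was at 104 CPM, while the 3 other groups overlapped one another. None of the 9 other genes had all its Des+/+ swim libraries above the rest. The share of all genes tested with this order was not counted, so whether it is unusual is not known.

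After swimming, Nrarp was lower in Des-/- than in Des+/+ libraries by a log2 change of -0.90 (SE 0.24, edgeR quasi-likelihood adjusted p 0.0369), from 155 ± 12.7 to 83.4 ± 12.4 CPM (SD, n = 3). It was the only call among the 10 genes in this comparison, in which 10.6% of all tested genes were called. The call is near its threshold: each of the 6 fits that left out one of the compared libraries gave an adjusted p above it, from 0.0614 to 0.117, with log2 changes of -1.0 to -0.79. The share of reads in no gene, the isolation genes and the cardiomyocyte markers given above also differed between these groups, and their part in the change of Nrarp was not tested. With upper-quartile scaling the change was -0.80 (adjusted p 0.0580), and with the replicate number as a block it was -0.89 (adjusted p 0.0534).

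Without swimming, Nrarp differed between genotypes by a log2 change of only 0.14 (SE 0.24, edgeR adjusted p 0.689), and the libraries overlapped. Within Des+/+ hearts its change with swimming was 0.98 (SE 0.24, edgeR adjusted p 0.0879), with no overlap between libraries. That change did not pass in the edgeR fit or in 18 of 21 alternatives, with adjusted p up to 0.319. It passed in DESeq2 (adjusted p 0.00520) and by the study's filter on unadjusted p. It also passed in edgeR without replicate 3 of both Des-/- groups (adjusted p 0.0253), a fit chosen after seeing the data. Within Des-/- hearts it was -0.06 (SE 0.24, edgeR adjusted p 0.924), and the libraries overlapped. The difference between these swimming changes, tested as an interaction, was -1.03 (SE 0.33, edgeR p 0.00975 unadjusted and 0.207 adjusted), so it is not shown that swimming acted differently on Nrarp in the 2 genotypes.

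**Figure D1:**
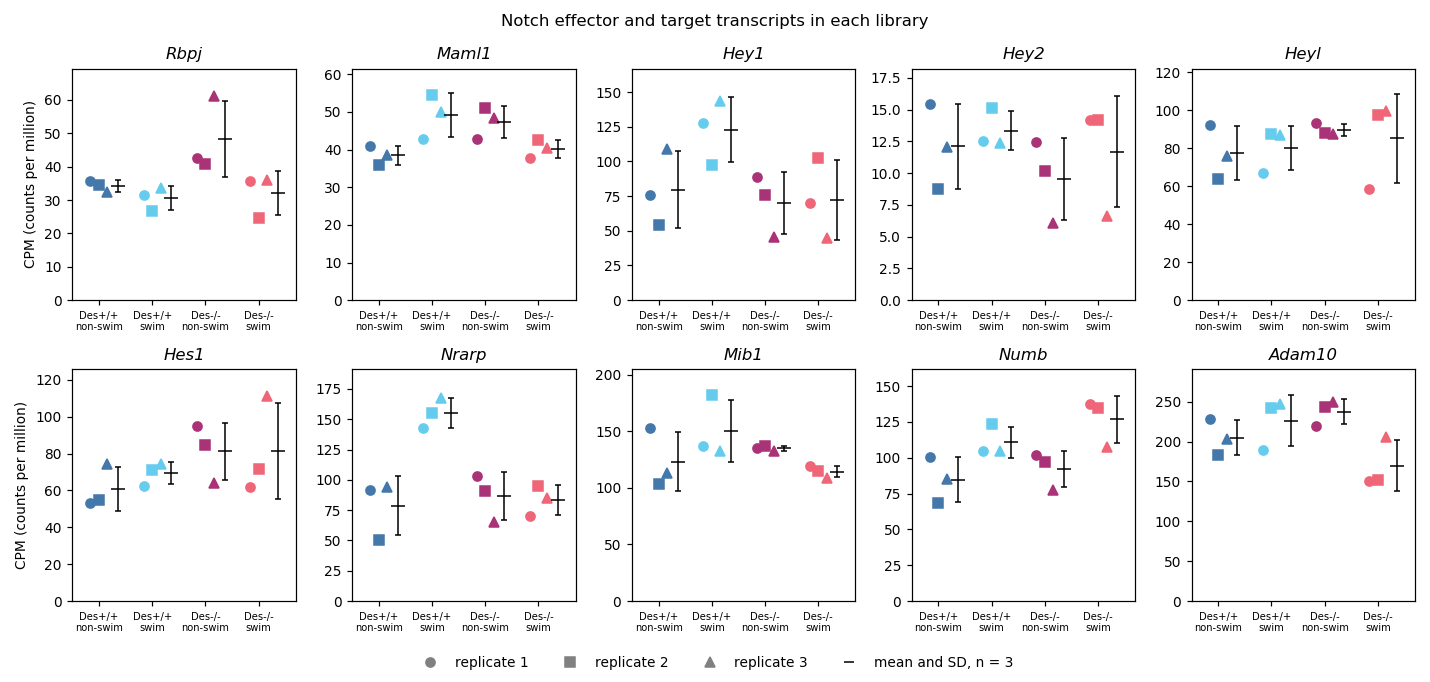
Level of each of the 10 genes in CPM (vertical axes, from 0) in the 12 libraries. Points are single libraries with a shape for each replicate number, and the black bar gives the mean and SD of each group (n = 3). Nrarp in the Des+/+ swim group lies between 142 and 168 CPM, above every other library, whereas the groups of the other 9 genes lie closer together.

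Endothelial cells use this pathway, and the listed endothelial markers were measured beside Nrarp. Their mean log2 CPM was 8.67 to 8.91 in Des+/+ non-swim, 8.92 to 9.33 in Des+/+ swim, 8.54 to 9.10 in Des-/- non-swim and 9.11 to 9.30 in Des-/- swim libraries, and 0 of 12 were at zero in any library. These ranges do not overlap between swim and non-swim libraries of the same genotype, by a narrow margin, whereas those of the summed CPM do overlap in both genotypes, and edgeR called 0 of the 12 for swimming in either genotype (2 at an unadjusted p under 0.05 in each, 1 called by DESeq2 in each). After swimming 1 of the 12 was called between genotypes and 7 were higher in Des-/- libraries. Of 6 arterial endothelial markers, 6 were higher in Des-/- libraries without and 4 after swimming, with 1 called by edgeR in each. Of 10 mural markers, 4 were higher without and 3 after swimming, with 1 and 0 called. Relative to the list of 12 endothelial markers, the log2 level of Nrarp was -2.05 to -1.67 in the Des+/+ swim libraries. In the Des-/- swim libraries it was -3.02 to -2.70, again without overlap. In the Des+/+ non-swim libraries it was -3.00 to -2.22, so the Des+/+ swim libraries also stayed above these on that scale. The Des-/- non-swim libraries were at -2.51 to -2.32, wholly above the Des-/- swim libraries, although in CPM these groups overlapped. The means on that scale were -1.83 in Des+/+ swim and -2.82 in Des-/- swim libraries, beside the log2 change of -0.90 in CPM.

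Among the receptors, the level of Notch1 was the nearest in pattern. It was at 240.4, 248 and 259.8 CPM in Des+/+ non-swim, 426, 416 and 423 in Des+/+ swim, 300.4, 319 and 235 in Des-/- non-swim and 235, 308 and 253 CPM in Des-/- swim libraries. Its 3 Des+/+ swim libraries likewise stood above the rest. Over the 12 libraries the Pearson correlation of log2 CPM with Nrarp was 0.89 for Notch1, 0.80 for Hey1, 0.74 for Notch4, -0.43 for Notch2 and 0.09 for Notch3. The genes most alike to Nrarp among all those tested were Gatad2a (0.95), a subunit of the NuRD chromatin complex, and Tmc8 (0.94), which encodes a transmembrane channel-like protein. These correlations are descriptions over libraries that share groups and depth.

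**Figure D2:**
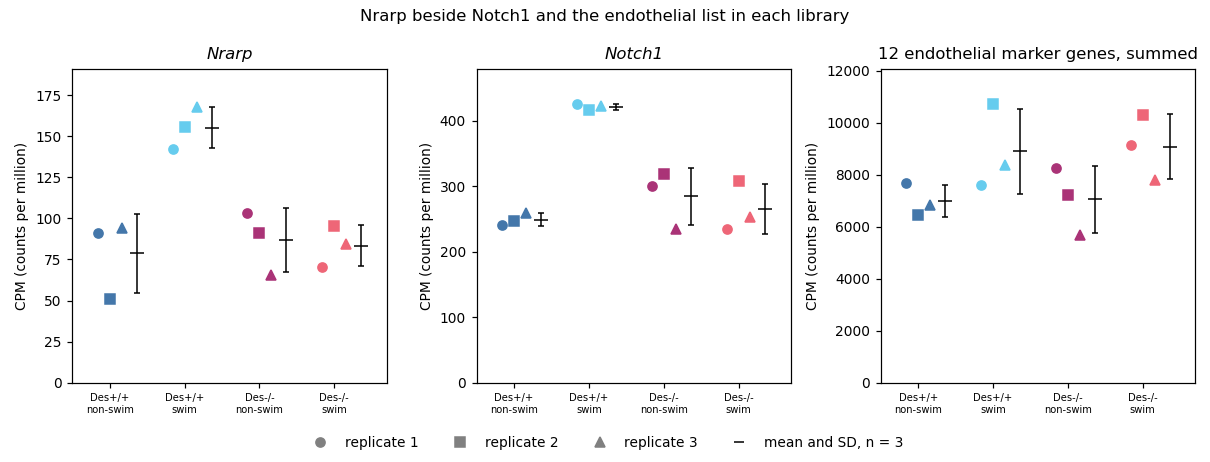
Nrarp, Notch1 and the summed level of 12 endothelial markers in CPM (vertical axes, from 0) in each library, with the mean and SD per group (n = 3). Nrarp and Notch1 are high in the Des+/+ swim libraries alone, and the endothelial sum overlaps between genotypes after swimming.

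The 4 other target genes belong to the Hes and Hey family of basic helix-loop-helix repressors. Hey1 (ENSMUSG00000040289, chr3:8663359-8667256) is a main target in endocardium and vessels. It was at 75.7, 54.1 and 109 CPM in Des+/+ non-swim and at 128, 97.3 and 144 CPM in Des+/+ swim libraries. In the Des-/- mice it was at 89.0, 75.9 and 45.6 CPM without and at 70.1, 102 and 44.6 CPM after swimming. Its mean was highest in the Des+/+ swim group, 123 ± 23.7 CPM (SD, n = 3), but the libraries overlapped in each of the 4 comparisons. The log2 change between genotypes was -0.77 after swimming (SE 0.34, edgeR p 0.0446 unadjusted and 0.154 adjusted), and that with swimming in Des+/+ libraries was 0.62 (SE 0.34, adjusted p 0.315).

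Replicate 3 gave the lowest Hey1 level in each Des-/- group, and the same was true of Hey2. Hey2 (chr10:30832359-30842801), a repressor used in compact myocardium and in arteries, was at 2.54 ± 0.685 CPM per kilobase of exon over the 12 libraries (SD, n = 12). The length used is the union of all annotated exons of a gene, 4593 bases for Hey2 and 12750 for Rbpj. On that scale Rbpj was at 2.84 ± 0.734, whereas in CPM its group means of 30.6 to 48.2 lay above those of Hey2, 9.55 to 13.3. Per kilobase, Rbpj had the lower mean of the pair in both swim groups. Hey2 levels were 8.77 to 15.4 CPM in Des+/+ non-swim, 12.4 to 15.1 in Des+/+ swim, 6.04 to 12.4 in Des-/- non-swim and 6.62 to 14.2 CPM in Des-/- swim libraries, on 43 to 141 reads per library. All 4 groups overlapped. Its log2 changes were -0.34 (SE 0.34) between genotypes without swimming and -0.19 (SE 0.34) after it, so changes of this size were not detectable at this depth and spread.

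Heyl (chr4:123233556-123249875), which is expressed in mural cells of vessels, was nearly level. It was at 63.8 to 92.2 CPM in Des+/+ non-swim, 67.0 to 87.2 in Des+/+ swim, 87.4 to 93.1 in Des-/- non-swim and 58.3 to 99.5 CPM in Des-/- swim libraries. Its log2 changes in the 4 pairwise comparisons lay between -0.07 and 0.21, each about as large as or smaller than its SE of 0.21. Hes1 (chr16:30064384-30067796), a broadly used Notch target, was at 53.4, 54.8 and 74.5 CPM in Des+/+ non-swim and at 94.7, 84.6 and 64.3 CPM in Des-/- non-swim libraries. With swimming, levels of 62.6, 71.0 and 74.6 CPM in Des+/+ and of 62.0, 71.7 and 111 CPM in Des-/- libraries were measured. The groups overlapped in both conditions, and the changes between genotypes of 0.41 (SE 0.23, edgeR adjusted p 0.182) and 0.23 (SE 0.23, adjusted p 0.508) did not pass. Without replicate 3 of both Des-/- groups, a fit chosen after seeing the data, the change without swimming was 0.62 and passed (edgeR adjusted p 0.0189). The highest group mean of Hes1 was in Des-/- swim, those of Nrarp and Hey1 in Des+/+ swim libraries.

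The transcription complex was represented by Rbpj, the DNA-binding partner of the Notch intracellular domain, and Maml1, its coactivator. Rbpj (ENSMUSG00000039191, chr5:53466152-53657362) was at 35.6, 34.6 and 32.3 CPM in Des+/+ non-swim and at 42.6, 40.8 and 61.2 CPM in Des-/- non-swim libraries. The swim libraries held 31.5, 26.6 and 33.7 CPM in Des+/+ and 35.8, 24.5 and 35.9 CPM in Des-/- mice. The Des-/- non-swim libraries lay above those of the 3 other groups, with replicate 3 farthest out.

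The log2 change of Rbpj between genotypes without swimming was 0.50 (SE 0.19, edgeR adjusted p 0.0640), and it passed with upper-quartile scaling (0.60, adjusted p 0.0286), without the filter (0.56, adjusted p 0.0438) and in DESeq2 (0.51, adjusted p 0.0459). It rested partly on Des-/- non-swim replicate 3, without which it was 0.29 (edgeR adjusted p 0.254). That library also held the highest fibroblast and macrophage levels. Within Des-/- hearts the change with swimming was -0.58 (SE 0.19, adjusted p 0.206), or -0.37 without that library. The annotation lists processed pseudogenes of Rbpj on other chromosomes, so some of its reads may have been set aside as aligning to several places.

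Maml1 (chr11:50255634-50292311) was at 41.0, 36.0 and 38.6 CPM in Des+/+ non-swim and at 42.9, 54.5 and 50.1 CPM in Des+/+ swim libraries. In Des-/- libraries it was at 42.8, 51.0 and 48.3 CPM without and at 37.8, 42.6 and 40.3 CPM after swimming. The order of the genotypes was thus opposite in the 2 conditions, and the libraries did not overlap in either. The log2 change between genotypes was 0.30 without swimming (SE 0.12, edgeR adjusted p 0.0884) and -0.29 after it (SE 0.13, adjusted p 0.148), and neither passed. With swimming, Maml1 changed by 0.35 in Des+/+ (SE 0.12, adjusted p 0.159) and by -0.23 in Des-/- libraries (SE 0.13, adjusted p 0.358). The interaction was -0.59 (SE 0.18), with the lowest unadjusted p of the 10 genes, 0.00661, and an adjusted p of 0.199.

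The remaining genes act on ligand and receptor. Mib1 (chr18:10725548-10818704) encodes a ubiquitin ligase that drives the uptake of ligands into the sending cell, which activates them. In the Des+/+ libraries it was at 153, 104 and 113 CPM without and at 137, 182 and 133 CPM after swimming. In the Des-/- libraries it was at 135, 137 and 133 CPM without and at 119, 115 and 109 CPM after swimming. After swimming each Des-/- library lay below each Des+/+ library, with a log2 change of -0.39 (SE 0.17, edgeR adjusted p 0.133). The annotation also places microRNA genes of muscle within Mib1, Mir1b on its own strand and Mir1a-2 and Mir133a-1 on the other, and their part in its count was not tested.

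Adam10 (chr9:70678997-70780229) encodes the protease that makes the first cut in a ligand-bound receptor. Over the 12 libraries it was at 42.6 ± 7.15 CPM per kilobase of exon (SD, n = 12), beside Nrarp at 39.1 ± 14.0 and Hes1 at 36.0 ± 8.23. These SDs take in the differences between groups, and the genes were not tested against each other. The order differed by group: per kilobase Nrarp was higher in Des+/+ swim (60.1 against 46.0) and Hes1 in Des-/- swim libraries (40.1 against 34.5). Adam10 levels were 228, 183 and 203 CPM in Des+/+ non-swim, 189, 242 and 247 in Des+/+ swim, 219.8, 243 and 249.6 in Des-/- non-swim and 150.0, 152 and 206 CPM in Des-/- swim libraries. The Des-/- swim group was lowest and did not overlap the Des-/- non-swim group, but replicate 3 of it overlapped the Des+/+ swim group. The log2 change between genotypes after swimming was -0.41 (SE 0.16, edgeR adjusted p 0.117), and that with swimming in Des-/- libraries was -0.49 (SE 0.16, adjusted p 0.213). The interaction was -0.63 (SE 0.23, adjusted p 0.239).

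Numb (chr12:83794034-83921934) encodes an adaptor that antagonises Notch by promoting its endocytosis. It was at 100.3, 68.6 and 85.1 CPM in Des+/+ non-swim and at 104, 123 and 104 CPM in Des+/+ swim libraries. In Des-/- libraries it was at 102, 96.9 and 77.5 CPM without and at 138, 135 and 108 CPM after swimming. Each swim library lay above each non-swim library of its genotype. The log2 change with swimming was 0.39 in Des+/+ (SE 0.17, edgeR adjusted p 0.229) and 0.46 in Des-/- libraries (SE 0.17, adjusted p 0.238). Averaged over both genotypes it was 0.42 (SE 0.12), with the lowest unadjusted p of the 10 genes in that contrast, 0.00437. The adjusted p was 0.10 in edgeR and 0.0238 in DESeq2. The interaction was 0.07 (SE 0.24, edgeR adjusted p 0.898), with a 1-SE range that spans zero.

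**Figure D3:**
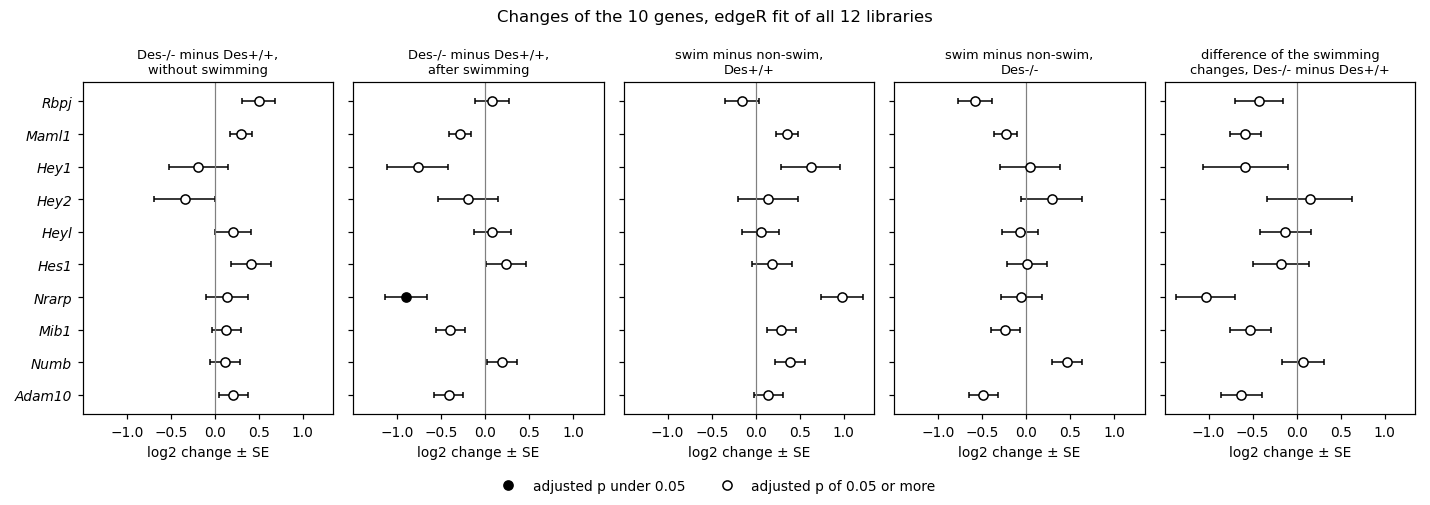
Log2 change with its SE (horizontal axes) of the 10 genes in the 4 pairwise comparisons and the interaction, from the edgeR fit of 12 libraries. Filled circles passed an adjusted p of 0.05. Nrarp after swimming, at -0.90, is the single filled circle.

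Taken over the 10 genes, the comparison of genotypes without swimming gave 0 calls in edgeR against 32.0% of all genes tested, with 2 genes at an unadjusted p under 0.05 (Rbpj and Maml1), against 43.7% of all genes, and 1 call in DESeq2 (Rbpj). Their median log2 change was 0.17, against 0.04 for all genes, and the libraries of the genotypes did not overlap for 2 of them, against 47.9% of all genes. After swimming, 1 of the 10 was called and 5 had an unadjusted p under 0.05, all lower in Des-/- libraries: Nrarp, Hey1, Maml1, Mib1 and Adam10. Of all genes, 10.6% were called and 30.5% had such a p. Their median was -0.24, against 0.02 for all genes, and 3 did not overlap, against 35.9% of all genes. Here and below, the shares of all genes called are from the edgeR fit, and none was counted for DESeq2.

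For swimming in Des+/+ libraries edgeR called 0 of the 10 and 0.0912% of all genes, and 3 of the 10 had an unadjusted p under 0.05, against 20.5% of all genes. DESeq2 called 1, Nrarp. The median of the 10 was 0.24, against -0.08 for all genes, with 9 of 10 above zero, against 42% of all genes, and the libraries did not overlap for 3, against 31.3% of all genes. In Des-/- libraries edgeR called 0 of the 10 and 0.0228% of all genes, 3 had an unadjusted p under 0.05, against 16.7% of all genes, and DESeq2 called 0. The median was -0.06, against -0.01 for all genes. The libraries did not overlap for 5 of the 10 (Rbpj, Maml1, Mib1, Numb and Adam10), against 19.4% of all genes.

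In the interaction edgeR called 0 of the 10 and 0% of all genes, and DESeq2 also called 0 of the 10. The medians were -0.48 for the 10 genes and 0.03 for all genes, 8 of the 10 were below zero, and 4 had an unadjusted p under 0.05 (Maml1, Nrarp, Adam10 and Mib1). Of all genes, 47.4% were below zero and 16.3% had such a p. These comparisons share libraries, so their values are not independent of each other. With the genotypes averaged over both conditions edgeR called 0 of the 10 genes, with 1 at an unadjusted p under 0.05 against 49.3% of all genes, and called 39.9% of all genes, and DESeq2 called 0. With swimming averaged over the genotypes edgeR called 0 of the 10, with 3 at an unadjusted p under 0.05 against 19.6% of all genes, and called 0.828% of all genes, and DESeq2 called 1, Numb. By group mean, 5 of the 10 genes were highest in Des+/+ swim (Maml1, Hey1, Hey2, Nrarp and Mib1), 3 in Des-/- non-swim (Rbpj, Heyl and Adam10) and 2 in Des-/- swim libraries (Hes1 and Numb). Except for Nrarp and Rbpj, the libraries of the highest group overlapped those of the next. The share of all genes highest in each group was not counted.

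The rest of the pathway was read from a list of 55 further genes, of which 50 were tested. Without swimming 9 passed between genotypes, 6 of them higher and 3 lower where desmin was absent, with a median log2 change of 0.16. These are 18% of the list, against 32.0% of all genes. Without Des+/+ non-swim replicate 2, 5 passed. The 4 with the smallest p were Numbl (1.45, SE 0.21, edgeR adjusted p 0.00112), the paralogue of Numb, Kat2b (-0.85, SE 0.16, adjusted p 0.00262), an acetyltransferase coactivator, Dtx4 (1.06, SE 0.24, adjusted p 0.00764), a ubiquitin ligase of the Deltex family, and Fbxw7 (-0.65, SE 0.16, adjusted p 0.0121), which marks the Notch intracellular domain for breakdown. Among the receptors Notch2 rose in Des-/- libraries by 0.97 (SE 0.28, edgeR adjusted p 0.0205), with Des-/- non-swim replicate 3 at 104 CPM and the others of that group at 52.6 and 50.5. Without that library its change was 0.55 (edgeR adjusted p 0.0758), and it also missed the threshold without any one of the Des+/+ non-swim libraries (adjusted p 0.0567 to 0.0614). The 4 genes named first passed in all 12 fits that left out a library. Notch1 (0.19, adjusted p 0.352), Notch3 (0.03, adjusted p 0.956) and Notch4 (0.49, adjusted p 0.0812) did not pass.

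After swimming 6 of the 50 passed, 3 in each direction, which is 12% of the list against 10.6% of all genes, with a median of -0.04, and 1 passed when Des+/+ swim replicate 3 was left out. Lower were Aak1 (-0.97, SE 0.14, edgeR adjusted p 0.00887), a kinase of endocytic adaptors including Numb, Notch1 (-0.67, SE 0.15, adjusted p 0.0224) and Furin (-0.66, SE 0.16, adjusted p 0.0267), the protease that processes the newly made receptor. Higher were Numbl (1.24, SE 0.21, adjusted p 0.0124), Cir1 (0.81, SE 0.21, adjusted p 0.0353), a corepressor that binds RBPJ, and Kdm5a (0.49, SE 0.14, adjusted p 0.0496), a histone demethylase found with RBPJ. Of these, Aak1 passed in all 12 fits that left out a library, Numbl in 11, Notch1 in 8, Furin in 6, Cir1 in 4 and Kdm5a in 2. The log2 changes of Numb itself between genotypes were 0.12 (SE 0.17) without and 0.19 (SE 0.17) after swimming. The 4 ligands tested were called in neither comparison. After swimming all 4 were lower in Des-/- libraries (median log2 change -0.52), against 48.4% of all genes. Without swimming all 4 were higher (median 0.14), against 52.6% of all genes.

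**Figure D4:**
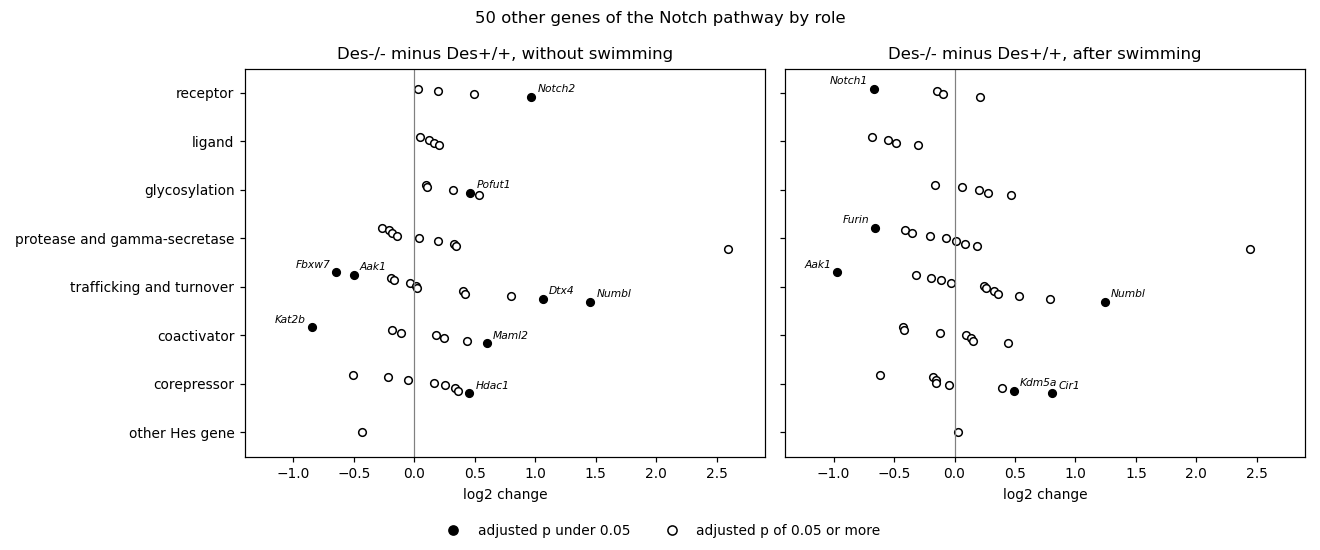
Log2 change between genotypes (horizontal axes) of 50 other Notch pathway genes, in rows by role, without swimming on the left and after it on the right. Filled, named circles passed an adjusted p of 0.05 in edgeR, 9 on the left and 6 on the right.

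For swimming within Des+/+ and within Des-/- libraries edgeR called 0 of the 50, with 11 and 5 at an unadjusted p under 0.05 (22% and 10%, against 20.5% and 16.7% of all genes), while DESeq2 called 5 and 2. The interaction gave 0 calls in edgeR, 6 genes at an unadjusted p under 0.05 (12%, against 16.3% of all genes) and 1 call in DESeq2. With swimming in Des+/+ libraries Notch1 changed by 0.76 (SE 0.15, edgeR adjusted p 0.0627) and Notch4 by 0.87 (SE 0.20, adjusted p 0.0814), neither past the threshold. With the genotypes averaged 13 of the 50 were called, 26% against 39.9% of all genes, 9 higher and 4 lower, led by Numbl (1.35), Aak1 (-0.74), Kat2b (-0.64) and Dtx4 (0.92). With swimming averaged over the genotypes edgeR called 0 of the 50, with 9 at an unadjusted p under 0.05 (18%, against 19.6% of all genes), and DESeq2 called 5.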

How the data were processed

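The authors aligned single-end reads of 100 bases to GRCm38 with HISAT2 2.2.1, sorted them with SAMtools 1.13 and deposited raw counts of reads per gene from HTSeq, run in its reverse-strand mode, with no normalisation. The kit named in the labels, TruSeq RNA v2, does not mark strand, whereas the methods name one that does.

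From these counts, genes were filtered with filterByExpr, libraries were scaled by TMM (CPM levels are per TMM-scaled total), and means of 4 groups were fitted to all 12 libraries in edgeR 4.0.16 (R 4.3.3, 8 residual degrees of freedom). Quasi-likelihood tests of 7 contrasts were adjusted by Benjamini-Hochberg over 13158 genes and called under 0.05. The method was tested on simulated counts. P-values measure the spread between pools. DESeq2 1.42.0 was an alternative, as were other scalings and filters, a replicate block, fits of the compared libraries alone and leaving out each library. Positions, exon lengths and overlaps came from GENCODE M21.

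The 10 genes, the lists and the tests were chosen with earlier results of these data known. Named besides the 10 were, of the pathway list, every called gene up to 8, or else the 4 with the smallest p, the Notch receptors, and for a called gene the 2 most correlated genes.

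Equal replicate numbers deviated together in the Des-/- non-swim and swim groups alone (correlations of deviations from the group means 0.36, 0.32 and 0.60), where nothing in the labels ties them. In every other pair of groups at least 1 number had a correlation under 0.1.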

Additional observations from a re-analysis of the deposited data

How the results depend on the processing

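Of 1450 log2 changes of the 10 genes under an alternative, 1425 kept their side of the threshold, 17 newly passed and 8, all of Nrarp after swimming, no longer did. In 56, called in neither fit, the sign changed. The counts that moved are given here out of the 10 genes and then out of the 50 other pathway genes. Upper-quartile scaling, which moved the median log2 change of all genes from 0.04 to 0.14 without and from 0.02 to 0.12 after swimming, called 2 of the 10 without swimming, 0 after it and 1 with genotypes averaged, and 14 of the 50 without swimming. Without the filter 1 of the 10 was called between genotypes without swimming. DESeq2 called 1 of the 10 for genotype without swimming, for swimming in Des+/+ and for swimming averaged, and 5, 2, 1 and 5 of the 50 for swimming in Des+/+, in Des-/-, the interaction and swimming averaged. The study's filter (p up to 0.05, read as unadjusted, with a log2 change from 0.6 in size and mean counts from 20) passed 2 of the 10 for genotype after swimming, 1 for swimming in Des+/+ and 2 for the interaction, and of the 50 it passed 3, 2, 4, 5 and 3 for swimming in Des+/+, in Des-/-, the interaction, genotypes averaged and swimming averaged. A fit of the 6 compared libraries called 3 of the 50 for swimming in Des+/+. Chosen after seeing the data, a fit without replicate 3 of both Des-/- groups called 1 of the 10 for genotype without swimming and 1 for swimming in Des+/+, and 3, 1 and 3 of the 50 for swimming in Des+/+, in Des-/- and averaged. The share of all genes called was not counted under any alternative, so these counts have no background beside them. The cause of the shifts in these counts was not tested.

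With the replicate block 0 of the 10 were called for genotype after swimming, since Nrarp went to an adjusted p of 0.0534, and the block changed no other call among the 10. The numbers are not tied to each other in the labels.

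When each of the 12 libraries was left out in turn, 0 to 1 of the 10 were called for genotype without swimming, 0 to 1 after it and 0 to 1 with genotypes averaged. Of the 50, 5 to 9 were called without swimming, 1 to 9 after it, 0 to 3 for swimming in Des+/+, 0 to 1 in Des-/- and 0 to 1 with swimming averaged. Depth was lowest in the Des-/- swim group, and 3 pools per group limit what changes of under 1 on the log2 scale can be called.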
